A study of Mus musculus with 6 samples.

Results

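Fc receptors bind the constant part of antibodies, and C1q is the recognition unit of the classical complement pathway. The 8 genes described here are Fcgr1, Fcgr2b, Fcgr3 and Fcgr4, which encode the receptors of mouse macrophages for IgG, Fcer1g, which encodes the signalling chain of the activating ones, and C1qa, C1qb and C1qc, which encode the chains of C1q. They were chosen by gene symbol, with no measured value used in the rule, and all 8 had 1 row among the 38087 genes of the deposited table. The activating receptors, encoded by Fcgr1, Fcgr3 and Fcgr4, need the Fc gamma chain made from Fcer1g, whose immunoreceptor tyrosine-based activation motif recruits the kinase Syk and starts phagocytosis of antibody-coated particles. The receptor made from Fcgr2b carries an inhibitory motif and recruits the phosphatase SHIP instead. C1q binds antibody on a surface and also apoptotic cells, and macrophages are one of its main sources.

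RNA was sequenced from bone marrow-derived macrophages of male C57BL/6J mice, grown with M-CSF (macrophage colony-stimulating factor, 10 ng/ml) for 7 days and replated without it for 24 h. One group of 3 libraries then received resolvin D1 (RvD1), a lipid mediator made from docosahexaenoic acid, at 10 nM for 6 h, and a group of 3 libraries was left untreated, with no vehicle named. Both groups share strain, sex, tissue and culture, and the mice are given as 8 to 10 weeks old in the protocol and as 2 to 4 months old in the sample labels. The title of the series names myeloid ALX/FPR2, a receptor for RvD1, and the comparison asks which transcripts differ after RvD1. Nothing in the labels ties the replicates to different mice or dishes. The p-values therefore measure only the spread between the 6 samples, and part of that spread may be technical.

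Values are log2 normalized reads as deposited, and a value of 0 is the floor. Depth was estimated at 9.06 to 16.3 M reads per library. The cultures carried the macrophage label in their RNA: Csf1r, the receptor for M-CSF, was at 14.08 to 14.39 and Adgre1, which encodes F4/80, at 12.82 to 13.28. Transcripts of other cells were present as well. Col1a1, a collagen of fibroblasts, was at 13.83 to 14.39 in every library, while the B cell markers Ms4a1 and Pax5 and the T cell marker Cd3e were at 0 in all 6. The neutrophil genes differed most between libraries of 1 group: S100a9 had 10.31, 10.99 and 12.21 as untreated values (replicates 1, 2 and 3, the order used throughout) and 10.65, 11.23 and 12.03 with RvD1. In whole cultures like these, fewer cells of a type and less RNA per cell cannot be told apart.

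None of the 8 genes passed the test between RvD1 and untreated macrophages. With limma and Benjamini-Hochberg adjustment over the 18899 genes tested, 0 of 8 were called at an adjusted p of 0.05, beside 1.12% of all genes (211, of which 106, or 0.561%, were higher and 105, or 0.556%, lower with RvD1). None of the 8 had an unadjusted p under 0.05 either, beside 19.9% of all genes, and the groups overlapped for all 8, while they did not overlap for 25.4% of all genes. The intervals bound what these libraries could miss: every 95% interval lay between a 0.727-fold and a 1.40-fold level. The 4 IgG receptor genes had log2 differences above 0 and the other 4 genes differences below 0, and the median over the 8 was 0.00, as over all genes tested.

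**Figure D1:**
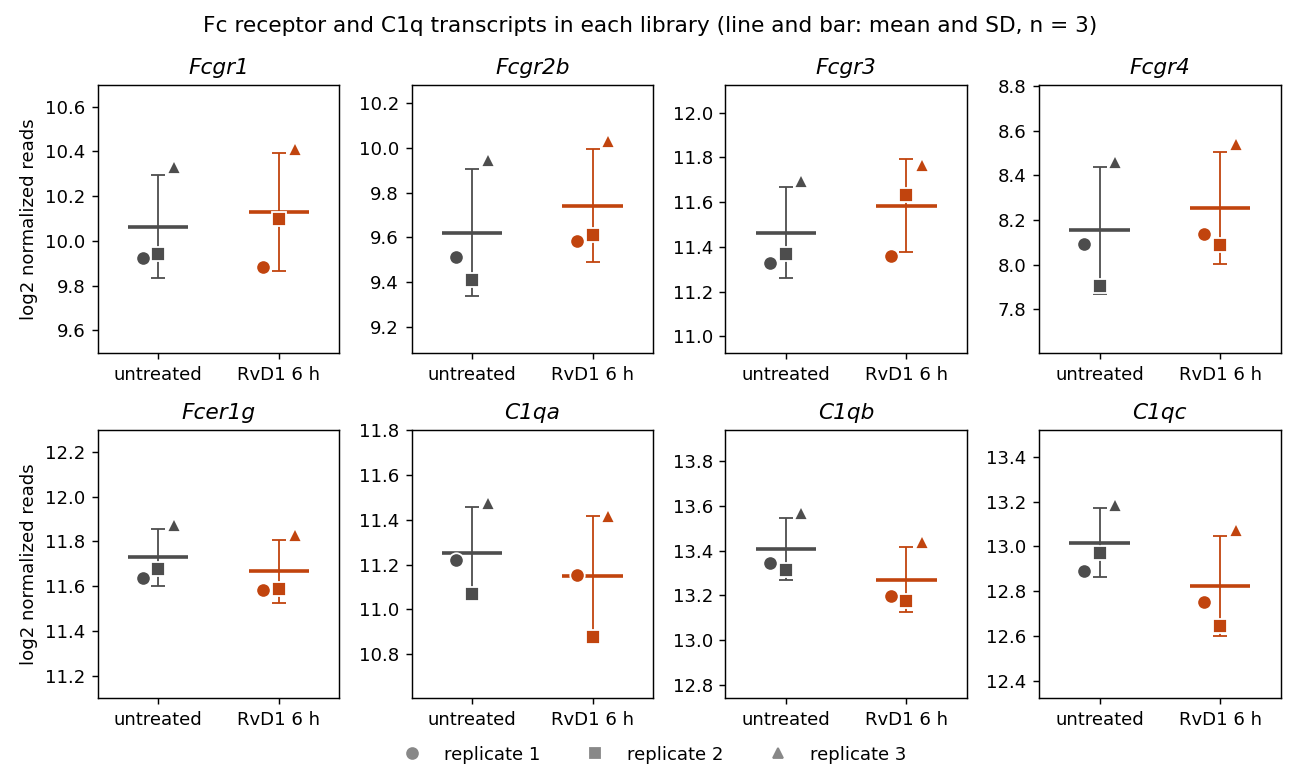
Deposited log2 normalized reads (y axis) of the 8 genes in each library, untreated beside RvD1; each point is 1 library, shaped by replicate, and lines and bars give the group mean and SD (n = 3). The points of the 2 groups overlap for every gene, from Fcgr4 at 7.91 to 8.54 up to C1qb at 13.17 to 13.57.

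Fcgr1 encodes the high-affinity IgG receptor and lies on the minus strand of mm10, at chr3:96282909-96293969. Its untreated values were 9.92, 9.94 and 10.33, and with RvD1 they were 9.88, 10.10 and 10.41. The lowest library of all was an RvD1 one and so was the highest, so the untreated values lay inside the range of the treated ones. The group means were 10.06 ± 0.23 and 10.13 ± 0.26 (SD, n = 3 each), a log2 difference of 0.07 (SE 0.15, 95% interval -0.27 to 0.40, limma adjusted p = 0.844). The exact two-sided permutation test gave p = 0.7, where 3 against 3 libraries cannot go below 0.1.

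Fcgr3 encodes a low-affinity activating receptor and lies on the minus strand at chr1:171051174-171064935. Its values were 11.33, 11.37 and 11.70 untreated and 11.36, 11.63 and 11.76 with RvD1. Untreated replicate 3 stood above RvD1 replicates 1 and 2, and the log2 difference was 0.12 (SE 0.12, interval -0.16 to 0.40, limma adjusted p = 0.638, exact permutation p = 0.6). Fcgr4, the neighbouring activating receptor gene on the plus strand at chr1:171018920-171029761, was the lowest of the 8. It was at 8.09, 7.91 and 8.46 untreated and at 8.14, 8.09 and 8.54 with RvD1, again with overlapping groups and a log2 difference of 0.10 (SE 0.16, interval -0.27 to 0.47, limma adjusted p = 0.778, exact permutation p = 0.6). Its lowest library held about 224 reads, for which counting alone gives an error of 6.68%.

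Fcgr2b, the inhibitory receptor gene, is on the same chromosome, on the minus strand at chr1:170958617-170976547. It was at 9.51, 9.41 and 9.94 untreated and at 9.58, 9.61 and 10.03 with RvD1. Only untreated replicate 3 exceeded RvD1 replicates 1 and 2, and the log2 difference of 0.12 (SE 0.16, interval -0.24 to 0.48) had a limma adjusted p of 0.723 and an exact permutation p of 0.5. Fcer1g, on the minus strand at chr1:171229572-171234365, was at 11.64, 11.68 and 11.87 untreated and at 11.58, 11.59 and 11.83 with RvD1. For this signalling chain the treated replicates 1 and 2 were the lowest libraries, yet RvD1 replicate 3 stood above 2 untreated ones. Its log2 difference was -0.06 (SE 0.09, interval -0.26 to 0.14, limma adjusted p = 0.742, exact permutation p = 0.5).

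Some reads of Fcgr2b and Fcgr3 are hard to separate, because their coding sequences are near copies in the part that encodes the antibody-binding domains. Over 531 aligned coding bases, delimited by an identity of at least 80% in windows of 50 bases, they were 94.0% identical. Of the 971 coding stretches of 50 bases in Fcgr2b 166 (17.1%), and of the 752 in Fcgr3 166 (22.1%), were present in the other gene. Bases outside the coding part were not compared. No other pair of the 8 genes shared such a stretch. The longest identical run, 129 bases, is shown in capitals with 30 coding bases on each side (coding bases 248 to 436 of Fcgr2b and 233 to 421 of Fcgr3, GENCODE M21 on mm10, sense strand), since a read inside it fits both genes.
Fcgr2b: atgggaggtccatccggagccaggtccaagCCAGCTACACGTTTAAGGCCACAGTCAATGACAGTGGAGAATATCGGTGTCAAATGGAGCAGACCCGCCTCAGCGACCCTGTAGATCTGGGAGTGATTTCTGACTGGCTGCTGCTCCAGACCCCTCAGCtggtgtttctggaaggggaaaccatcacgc
Fcgr3: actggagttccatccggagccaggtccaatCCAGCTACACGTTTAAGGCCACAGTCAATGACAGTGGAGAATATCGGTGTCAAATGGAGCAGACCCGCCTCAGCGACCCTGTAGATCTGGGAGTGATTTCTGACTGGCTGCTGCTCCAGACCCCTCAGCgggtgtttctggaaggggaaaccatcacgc
How the authors' counting split such reads is not given in the sources used here, so the separate levels of these 2 genes are uncertain. The ratio of Fcgr3 to Fcgr2b normalized reads was 3.52, 3.89 and 3.37 untreated and 3.42, 4.06 and 3.32 with RvD1, with overlapping groups. An antisense gene, Gm38204, also overlaps Fcgr2b, and whether the counting used strand is not stated.

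The C1q genes stand side by side on the minus strand of chromosome 4, and C1qb and C1qc were among the most abundant transcripts of these cells. C1qb (chr4:136880129-136886187) ranked 100 by mean level among all genes, at 13.34, 13.31 and 13.57 untreated and 13.20, 13.17 and 13.44 with RvD1. RvD1 replicates 1 and 2 were below all untreated libraries and RvD1 replicate 3 was above 2 of them. The means of 13.41 ± 0.14 and 13.27 ± 0.15 (SD, n = 3 each) gave a log2 difference of -0.14 (SE 0.09, interval -0.35 to 0.08, limma adjusted p = 0.458, exact permutation p = 0.3).

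C1qc (chr4:136889804-136893065), ranked 164, was at 12.89, 12.97 and 13.19 untreated and at 12.75, 12.64 and 13.08 with RvD1. The arrangement was the same as for C1qb, with RvD1 replicates 1 and 2 lowest and RvD1 replicate 3 inside the untreated range. Its log2 difference of -0.19 (SE 0.12, interval -0.46 to 0.08) was the farthest from 0 of the 8, with a limma adjusted p of 0.410 and an exact permutation p of 0.3. C1qa (chr4:136895917-136898803) ranked 975, below Fcer1g (567) and Fcgr3 (690). It was at 11.22, 11.07 and 11.47 untreated and at 11.15, 10.88 and 11.42 with RvD1. RvD1 replicate 3 was the next highest library after untreated replicate 3, and the log2 difference was -0.10 (SE 0.14, interval -0.43 to 0.22, limma adjusted p = 0.729, exact permutation p = 0.7).

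The C1q transcripts are short and rich in GC, and the differences of C1qa and C1qb changed sign with a correction for length and GC. C1qa, C1qb and C1qc have longest transcripts of 1040, 1088 and 1203 bases with a GC content of 59.5%, 57.4% and 57.5%. Among the 1536 expressed genes under 1500 bases and over 50% GC, 85.4% had a log2 difference below 0 (median -0.15), against 48.9% of all 13024 expressed genes (median 0.01), where expressed means a mean log2 value of 5 or more. Of the 3387 expressed genes over 3000 bases and under 48% GC, a class that holds Fcgr2b (3544 bases, 45.4% GC), 16.9% were below 0 (median 0.14). After a smooth correction of the log2 values for length and GC, the limma differences were 0.11 for C1qa (SE 0.12, adjusted p = 0.795), 0.04 for C1qb (SE 0.09, adjusted p = 0.899), -0.01 for C1qc (SE 0.11, adjusted p = 0.975) and 0.03 for Fcer1g (SE 0.09, adjusted p = 0.918). The receptors stayed above 0, from 0.03 for Fcgr2b to 0.14 for Fcgr3 (SE 0.12), so that 7 of the 8 corrected differences were positive, none of them called. The correction removes any trend with length and GC from each library, be it technical or a response to RvD1. Which of these it was cannot be told apart here and was not tested.

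**Figure D2:**
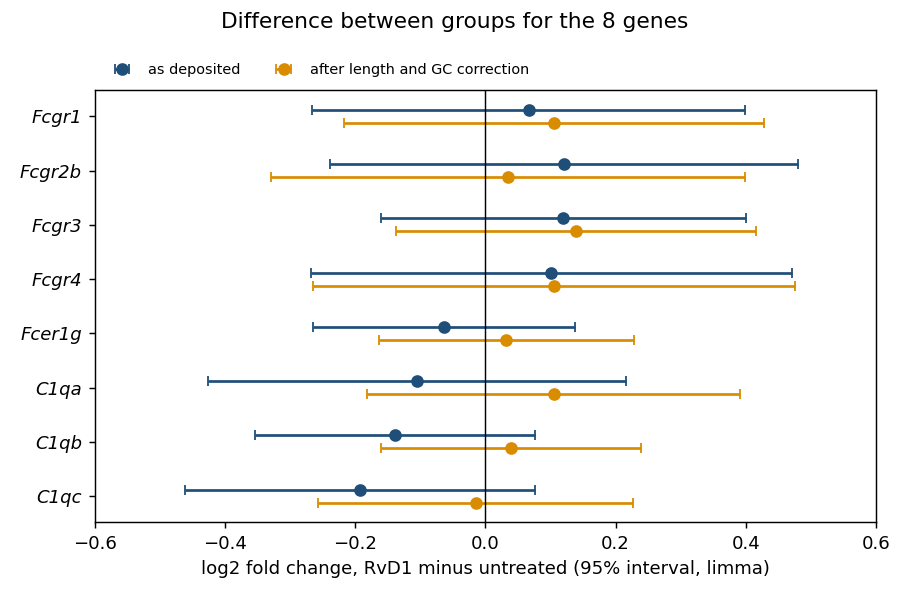
Log2 difference between RvD1 and untreated libraries (x axis) for the 8 genes, with 95% intervals from limma, for the values as deposited and after the correction for length and GC. Every interval crosses 0, and the C1q differences of -0.10 to -0.19 lie at -0.01 to 0.11 after the correction.

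For all 8 genes the libraries of a group differed by more than the group means did. Replicate 3 was the highest library in both groups for all 8 genes, which held for 15.9% of the genes tested (17.4% for replicate 1 and 10.5% for replicate 2). Untreated replicate 3 stood 0.17 to 0.27 above the 6-library mean of each gene, and RvD1 replicate 3 stood 0.10 to 0.35 above it. Without RvD1 replicate 3 the log2 differences of Fcgr1, Fcgr2b and Fcgr4 were -0.073, -0.025 and -0.042, and without untreated replicate 3 those of Fcer1g and C1qa were 0.0092 and 0.0053. This was not particular to the 8 genes: 7 of 8 macrophage markers and 7 of 8 neutrophil markers were also highest in replicate 3 of both groups. So were 4 of 6 mast cell and basophil markers, 2 of 3 megakaryocyte markers, 2 of 5 dendritic cell markers and 14 of 27 interferon-gamma targets. Of the 5 fibroblast and stromal markers and the 4 endothelial markers, 0 were. The summed macrophage markers were at log2 levels of 16.62, 16.72 and 16.99 untreated and 16.68, 16.81 and 17.03 with RvD1. The summed neutrophil markers were at 12.03, 12.69 and 13.83 untreated and 12.40, 12.89 and 13.79 with RvD1, so untreated replicates 1 and 3 were the farthest apart. The summed endothelial markers instead were highest in RvD1 replicate 1, at 9.92 beside 8.09 to 8.95 in the other libraries. The part of these markers in the levels of the 8 genes was not tested.

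**Figure D3:**
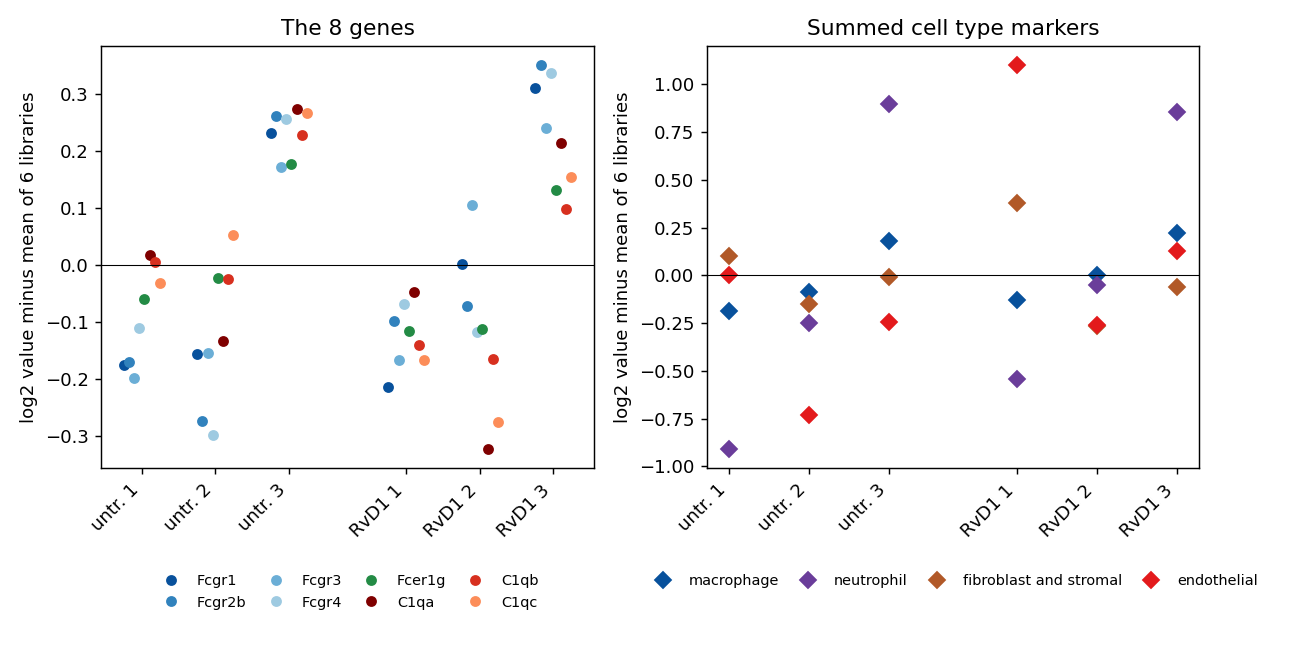
Left, log2 value of each of the 8 genes minus its mean over the 6 libraries (y axis), by library; right, the same for the summed markers of 4 cell types. Each point is 1 gene or 1 marker list; in replicate 3 of both groups all 8 genes and the macrophage and neutrophil sums lie above 0.

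Per kilobase of longest transcript, the order of the untreated levels ran from C1qb to Fcgr2b. C1qb was at 10028 ± 985 normalized reads per kb (SD, n = 3), C1qc at 6912 ± 752 and Fcer1g at 4983 ± 449. Within each library C1qb lay above C1qc and C1qc above Fcer1g, while over the 6 libraries the ranges of C1qc and Fcer1g overlapped and those of C1qb and C1qc did not. C1qa at 2364 ± 341 and Fcgr3 at 2112 ± 306 had overlapping ranges, though C1qa was the higher within each untreated library. With RvD1 the order of their means was the other way round, at 2209 ± 409 and 2295 ± 322. This rested on RvD1 replicate 2, with C1qa at 1809 and Fcgr3 at 2353. In RvD1 replicates 1 and 3 C1qa was the higher. Fcgr1 followed at 417 ± 69.1, apart from both neighbours in this order. Fcgr4 at 229.6 ± 46.0 and Fcgr2b at 225 ± 46.2 were within their spread. With the length of all annotated exons in place of the longest transcript, Fcgr2b was at 138 ± 28.3 and remained the lowest, and C1qc was at 4306 ± 468. By that length the RvD1 mean of C1qa, 2209 ± 409, stood above that of Fcgr3, 1781 ± 249.9. The order of these 2 RvD1 means thus depended on the length used. By the length of all exons C1qc at 3314 also lay below Fcer1g at 3515 in RvD1 replicate 2, so their order within that library depended on the length as well.

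**Figure D4:**
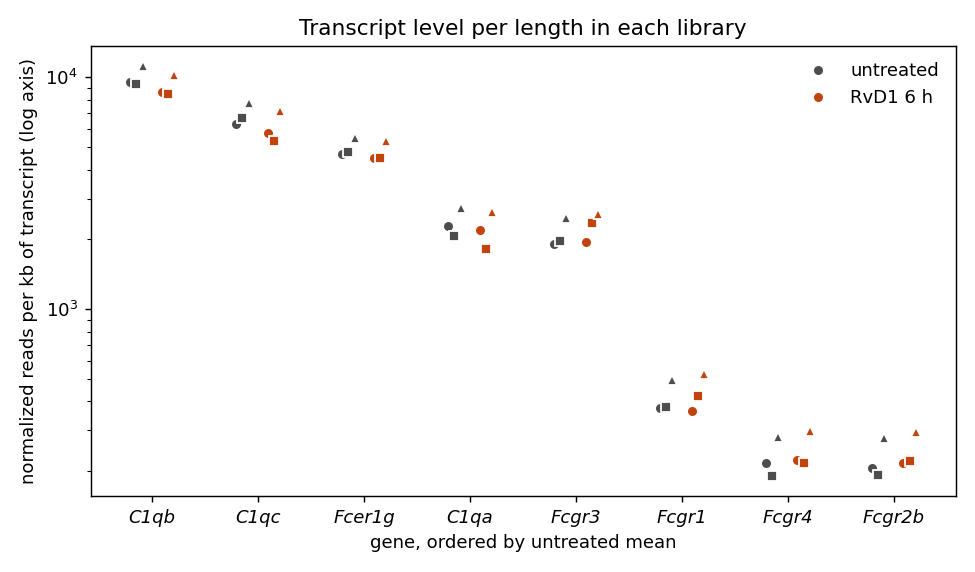
Normalized reads per kb of longest transcript (y axis, log scale) for the 8 genes, untreated and RvD1; each point is 1 library, with circle, square and triangle for replicates 1, 2 and 3. C1qb, C1qc and Fcer1g lie highest, and Fcgr4 and Fcgr2b lie lowest in both groups.

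The balance of activating to inhibitory receptor transcripts overlapped between the groups. The summed level per kb of Fcgr1, Fcgr3 and Fcgr4 over that of Fcgr2b was 12.1, 13.2 and 11.7 untreated and 11.7, 13.6 and 11.5 with RvD1. The treated range thus held the untreated one. By the length of all exons the ratio was 15.6 to 18.3 over the 6 libraries. Its level is uncertain, because some reads of Fcgr2b and Fcgr3 are hard to separate. Fcer1g per kb was 1.87, 1.89 and 1.70 times the summed activating receptors in untreated libraries and 1.77, 1.5 and 1.57 times with RvD1, where RvD1 replicate 1 lay inside the untreated range. Among the C1q chains, which assemble in equal numbers, transcripts per kb were unequal. C1qb was 4.17, 4.53 and 4.08 times C1qa untreated and 3.94, 4.69 and 3.88 times with RvD1, and C1qb was 1.40 to 1.60 times C1qc over the 6 libraries, or 2.25 to 2.56 times by the length of all exons.

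Over the 6 libraries the IgG receptors followed each other closely, with Pearson r between 0.807 and 0.988 for their 6 pairs, and the C1q genes likewise with r of 0.878 to 0.964. Receptors against C1q genes gave 0.408 to 0.817 over 12 pairs. With each group's mean taken out, the ranges were 0.797 to 0.988 among receptors, 0.901 to 0.951 among C1q genes and 0.552 to 0.991 between them, so they overlapped. These values describe 6 points that share library and depth and include the high replicate 3. Among 13176 expressed genes the closest to Fcgr1 were Itgam (r = 0.993), Irf7 (0.992) and Znfx1 (0.989). Itgam encodes the alpha chain of complement receptor CR3, and Irf7 is an interferon-regulated transcription factor. The closest to Fcgr3 were Emb (0.997), Ifi204 (0.993) and Dstyk (0.991), those to Fcgr2b were Ctns (0.991), Fcgr4 (0.988) and Atp2a3 (0.983), and those to Fcgr4 were H2-T22 (0.991), Ctns (0.990) and Fcgr2b (0.988). For Fcer1g they were Gm17782 (0.996), Lgmn (0.994) and Tbc1d9b (0.986), with Lgmn encoding the lysosomal protease legumain. For C1qa they were H3f3a (0.984), Kdelr1 (0.983) and Psmb9 (0.980), for C1qb Os9 (0.991), Rasal3 (0.991) and Pdzk1ip1 (0.989), and for C1qc Rbm43 (0.990), Hadha (0.989) and Sirpa (0.987), Sirpa being the macrophage receptor for CD47.

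The promoters of Fcgr4 and C1qb, both with a match to a motif named below, are shown (RefSeq starts, GRCm38.p6, read 5′ to 3′ in the direction of the gene, bases before the start that lie in no annotated exon). Capitals mark matches, on either strand, to the core GAGGAA bound by the myeloid factor PU.1 and to GAAA, any 2 bases and GAAA again, the core of the interferon-stimulated response element. Fcgr4 is at chr1:171018676-171018919 on the plus strand and C1qb at chr4:136886201-136886450 on the minus strand.
Fcgr4: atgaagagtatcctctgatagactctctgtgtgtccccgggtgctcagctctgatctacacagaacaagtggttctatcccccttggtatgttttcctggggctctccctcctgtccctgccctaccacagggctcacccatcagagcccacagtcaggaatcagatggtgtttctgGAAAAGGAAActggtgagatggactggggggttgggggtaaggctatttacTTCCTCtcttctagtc
C1qb: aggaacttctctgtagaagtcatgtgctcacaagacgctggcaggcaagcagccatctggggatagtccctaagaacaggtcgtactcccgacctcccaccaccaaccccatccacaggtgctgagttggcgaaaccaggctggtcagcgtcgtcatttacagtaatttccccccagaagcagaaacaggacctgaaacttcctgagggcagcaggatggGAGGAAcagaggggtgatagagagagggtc
Of the 8 genes, 7 had a promoter entry (C1qa had none). GAGGAA was present within 250 bases before the start in 5 of the 7 (C1qb, C1qc, Fcgr1, Fcgr3 and Fcgr4), beside 23.3% of 32851 promoters. Fcgr2b and Fcer1g had no match. The response element core was present in Fcgr4 alone of the 7, beside 2.98% of promoters. GAGGAA and the response element core can share letters, but the printed matches do not overlap. The motifs were picked after these sequences had been seen, and a match is a description of letters, not a site of binding.

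The rest of the pathway gave no call either. By limma, 0 of 8 other Fc receptor genes tested, 0 of 17 receptors that pair with the Fc gamma chain or DAP12 and 0 of 30 Fc receptor signalling genes were called, and unadjusted p-values under 0.05 numbered 1, 3 and 5, all with positive differences. The medians of these lists were 0.08, 0.02 and 0.08, against 0.00 for all genes. After the length and GC correction they were 0.15, 0.03 and 0.04, against 0.00. In the signalling list 20 of 30 differences were positive, beside 50.8% of all genes. These shares of unadjusted p-values under 0.05 were below the 19.9% of all genes. The smallest p-values there belonged to Cbl and Cblb, the ubiquitin ligases that mark Syk and the Fc gamma chain for turnover. Cbl was at 10.04, 10.14 and 9.88 untreated and at 10.28, 10.57 and 10.49 with RvD1, a log2 difference of 0.43 (SE 0.09, limma adjusted p = 0.0680), and Cblb at 10.43, 10.34 and 10.17 and at 10.80, 10.71 and 10.55 (0.37, SE 0.09, adjusted p = 0.0757). Both genes had groups that did not overlap, as 25.4% of all genes did. Cd300lf, an inhibitory lipid receptor that can also pair with the Fc gamma chain, had a difference of 0.30 (SE 0.08, limma adjusted p = 0.0914), and Clec4e, the receptor Mincle, one of 0.51 (SE 0.19, adjusted p = 0.192). Among the other Fc receptors, Trim21, the antibody receptor of the cytosol, had 0.35 (SE 0.14, limma adjusted p = 0.216), and Fcer1a, the IgE-binding chain of mast cells and basophils, lay near the floor at 0 to 1.58.

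On the inhibitory side 0 of 21 receptors and phosphatases with or bound by inhibitory motifs were called by limma, and the median was -0.00. Of the 21, 2 had an unadjusted p under 0.05, both with negative differences, beside 19.9% of all genes in either direction. Inppl1, which encodes the phosphatase SHIP2, was at 11.68, 11.68 and 11.67 untreated and at 11.40, 11.46 and 11.51 with RvD1. These groups lay apart, with a log2 difference of -0.22 (SE 0.05, limma adjusted p = 0.0766). Dok3, an adaptor that binds SHIP, had a difference of -0.33 (SE 0.14, limma adjusted p = 0.240). The interferon-gamma targets, a class to which Fcgr1 belongs, had 0 of 27 called and 3 at an unadjusted p under 0.05, beside 19.9% of all genes. These targets had 20 of 27 positive differences, beside 50.8% of all genes, with a median of 0.29 (0.22 after the length and GC correction). Their smallest limma p-values belonged to Irgm1, a GTPase of the defence against intracellular bacteria (0.40, SE 0.13, adjusted p = 0.153), and Gbp4, a guanylate-binding protein gene at a low level (1.20, SE 0.44, adjusted p = 0.187). Of the 27 targets, 18 had a mean log2 value of 5 or more. The largest differences, those of Gbp4, Iigp1, Gbp5, Cxcl10 and Gbp6, belonged to genes below that level.

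Complement genes beyond C1q were also without a call by limma: 0 of 13 components, 0 of 10 regulators and 0 of 14 complement and C1q receptors. Of these, 1, 2 and 2 had an unadjusted p under 0.05, beside 19.9% of all genes. The list medians were -0.06, 0.25 and 0.02, and after the length and GC correction 0.00, 0.20 and 0.00. Of the components, C4a had a log2 difference of -0.70 (SE 0.28, limma adjusted p = 0.211), which is uncertain because C4b is a near-identical copy, and C1s2, a C1s protease gene, one of 0.85 (SE 0.43, adjusted p = 0.316). Both were at low levels, C4a at 2.30 to 3.33 and C1s2 at 2.08 to 4.08 over the libraries. Of the regulators, 8 of 10 had positive differences, beside 50.8% of all genes. Among the 8 was Csmd1, a membrane regulator (0.72, SE 0.15, limma adjusted p = 0.0596). Among the receptors, Cd93, first described as a C1q receptor, was at 12.47, 12.43 and 12.52 untreated and at 12.64, 12.70 and 12.82 with RvD1. Its groups did not overlap, with a difference of 0.25 (SE 0.06, limma adjusted p = 0.0863). C5ar1, the receptor for the anaphylatoxin C5a, had a difference of -0.16 (SE 0.07, limma adjusted p = 0.222).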

How the data were processed

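Per the labels' protocols, a TruSeq kit selected poly-A RNA from 100 to 400 ng of input. TopHat2 2.0.7 and mm10 come from the submitters' processing notes; the counter is not given in the sources used here, nor are the annotation release, strand setting or normalization software. One table was deposited, its columns marked as normalized, and its values were read as log2 normalized reads, with decimal commas: they ran from 0 to 17.4, and antilogs summed to 12.4 to 12.8 M per library. A group was read from the sample title. Of the gene identifiers, 36308 (95.3%) were in GENCODE M21, used for lengths and positions.

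Whole reads were not recovered (40.7% to 51.3% of low values lay within 0.02 of a whole number), so no count test was run, and depth was estimated from the step of low values. Pairs of libraries differed by 2.30 to 5.98 times the counting variance, over genes well covered in both. limma 3.58.1 in R 4.3.3 (trend, treatment only) was fitted to genes above 0 in at least 3 libraries and tested on simulated data; intervals cover 95%. Gene lists, members and motifs were chosen with earlier results of these data known, as were the length and GC classes. From each list the 2 genes of smallest p were named, and for each of the 8 genes the 3 with the highest r; a few items are not reported here. Alternatives were another scaling, filter, pseudocount or prior, a replicate block, a length and GC correction and leaving out each library.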

Additional observations from a re-analysis of the deposited data

How the results depend on the processing

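Over 15 alternatives, 104 of 120 log2 differences of the 8 genes kept their direction and their side of the threshold, 14 changed sign and 2 became called. Both calls came from the fit with the replicate block, C1qb at -0.14 (limma adjusted p = 0.0375) and C1qc at -0.19 (adjusted p = 0.0417), so that 2 of 8 genes were called there and 0 in every other alternative run, where the lowest adjusted p was 0.184 without a block and 0.117 when the block was joined with the length and GC correction. The labels do not say what a replicate number stands for, and the deviations of same-numbered libraries correlated at 0.30, -0.08 and 0.42 for replicates 1, 2 and 3, and not every library correlated best with its own number. The length and GC correction turned Fcer1g to 0.032, C1qa to 0.11 and C1qb to 0.040, with and without the block. Leaving out 1 library at a time gave -0.073 to 0.20 for Fcgr1, -0.025 to 0.28 for Fcgr2b, 0.030 to 0.24 for Fcgr3, -0.042 to 0.26 for Fcgr4, -0.15 to 0.0092 for Fcer1g, -0.24 to 0.030 for C1qa, -0.22 to -0.060 for C1qb and -0.32 to -0.10 for C1qc. The signs changed for Fcgr1 without untreated replicate 1 (-0.0046), Fcgr4 without untreated replicate 2 (-0.022), C1qa without RvD1 replicate 2 (0.030), Fcgr1, Fcgr2b and Fcgr4 without RvD1 replicate 3 and Fcer1g and C1qa without untreated replicate 3. The 211 genes called over the table became 1896 with the replicate block, 770 with the block and the correction, 36 with the correction alone, 12 with a filter of above 0 in at least 1 library, 464 with a filter on the mean log2 value, 1 without the variance trend and 0 to 451 with 1 library left out, the highest without RvD1 replicate 1. Of the 140 entries tested in the 8 pathway lists (Lair1 is in 2 lists) 0 were called in the fit reported, 0 with the correction and 18 (12.9%) with the replicate block, beside 10.0% of all genes in that fit. With the block and the correction 14 entries were called, beside 770 of the 18549 genes tested there. The filter on the mean log2 value gave calls for 1 Fc receptor signalling gene and 1 complement regulator. Leaving out RvD1 replicate 1 gave 1 signalling gene. The cause of these shifts was not tested. Depth limits Fcgr4 most among the 8 genes.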
